A study of Mus musculus with 2 samples.

Results

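The MEF2, SRF and myocardin family was described in open chromatin of mouse cardiac progenitor cells (CPCs). It holds 9 genes chosen by name: the MEF2 factors Mef2a, Mef2b, Mef2c and Mef2d, the serum response factor gene Srf, the coactivator genes Myocd, Mkl1 and Mkl2, and Hopx. A peak was counted for a gene when the deposited list carried that gene's symbol beside it. All 9 genes had at least 1 peak, against 62.5% of 21896 protein coding RefSeq genes, and together they held 22 of the 26232 distinct peaks and were 9 of the 15351 genes with a peak.

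Open chromatin was mapped with ATAC-Seq, in which Tn5 transposase cuts and tags accessible DNA. The CPCs were taken at day 5 of differentiation of E14 Tg(Nkx2-5-EmGFP) embryonic stem cells. These cells report the early heart factor Nkx2-5 with a green fluorescent protein, and the labels give them as strain C57BL/6. The 2 samples are replicates of 1 group with no treatment, from separate differentiations per the study's methods, and Isl1 knockdown cells named in the series were not analysed here. Both are represented by 1 list of peaks found in each of them, so no value has a replicate error, depth is unknown, and no test between conditions was possible.

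MEF2 factors and SRF are the MADS-box transcription factors of muscle: MEF2 dimers bind an A and T rich site, and SRF dimers bind the CArG box, in which CC and GG flank a run of A and T bases. SRF switches genes of growth and of muscle contraction according to its partner, with myocardin and the related Mkl1 and Mkl2 proteins (MRTF-A and MRTF-B) on the muscle and cytoskeleton side. Mkl1 and Mkl2 are held in the cytoplasm by monomeric actin, whereas myocardin is nuclear and restricted to heart and smooth muscle, and Hopx is a small homeodomain protein that does not bind DNA and opposes SRF.

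The clearest sequence pattern at the family's own start sites was the CArG box pair of Srf. Promoter windows of 300 bases (250 before to 50 after a start) were taken from the RefSeq table (GRCm38.p6) and located on mm9 by exact match. The 14 windows of 8 members each matched mm9 once. The table held no window for Myocd. Both strands were searched for the CArG box (CC and GG around 6 bases that are A or T) and for the MEF2 site (TA and TA around 4 bases that are A or T, with C or T before and A or G after), and positions are counted along the gene with the start base as 0. The 4 windows with a match are shown, with the matches in capitals, and the Hopx window is the one of the 4 that no peak covered.
Srf, chr17:46693062-46693361 (mm9, minus strand): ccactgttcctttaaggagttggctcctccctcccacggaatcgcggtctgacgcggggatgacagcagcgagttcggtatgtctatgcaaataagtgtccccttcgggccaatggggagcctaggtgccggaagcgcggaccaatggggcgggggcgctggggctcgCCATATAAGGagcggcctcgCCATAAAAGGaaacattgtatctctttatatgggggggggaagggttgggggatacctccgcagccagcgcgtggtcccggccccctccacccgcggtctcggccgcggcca
Mef2a, chr7:74517695-74517994 (mm9, minus strand): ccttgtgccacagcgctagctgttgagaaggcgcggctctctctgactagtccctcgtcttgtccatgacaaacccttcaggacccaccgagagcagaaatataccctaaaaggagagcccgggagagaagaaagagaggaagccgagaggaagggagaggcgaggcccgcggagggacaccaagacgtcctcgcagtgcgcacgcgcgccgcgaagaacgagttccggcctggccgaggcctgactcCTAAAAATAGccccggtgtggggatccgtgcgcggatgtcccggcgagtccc
Mkl2, downstream start, chr16:13358264-13358563 (mm9, plus strand): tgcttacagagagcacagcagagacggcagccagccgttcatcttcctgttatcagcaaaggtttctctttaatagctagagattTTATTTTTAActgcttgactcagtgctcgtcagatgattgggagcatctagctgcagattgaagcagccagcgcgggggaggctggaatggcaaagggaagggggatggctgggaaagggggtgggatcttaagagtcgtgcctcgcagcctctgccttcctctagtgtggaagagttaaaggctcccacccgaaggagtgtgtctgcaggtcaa
Hopx, upstream start, chr5:77544099-77544398 (mm9, minus strand): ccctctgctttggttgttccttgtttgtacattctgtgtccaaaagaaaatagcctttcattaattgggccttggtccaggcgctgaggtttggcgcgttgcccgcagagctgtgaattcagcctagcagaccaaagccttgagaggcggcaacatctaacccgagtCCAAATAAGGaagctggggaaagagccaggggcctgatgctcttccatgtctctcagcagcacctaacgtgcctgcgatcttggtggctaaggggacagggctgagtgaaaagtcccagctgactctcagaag

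The Srf window held CCATATAAGG from position -82 to -73 and CCATAAAAGG from -62 to -53, both inside the Srf peak. Of 32851 mouse promoter windows in the table, 1.63% held a CArG box and 6 windows (0.0183%) held at least 2. Mef2a carried a MEF2 site, CTAAAAATAG, from position -2 to 7, so that the letters spanned the annotated start itself, inside its peak. The downstream start of Mkl2 had the MEF2 site TTATTTTTAA from -165 to -156, also inside a peak. MEF2 sites were present in 3.19% of all windows. The Hopx window held the CArG box CCAAATAAGG from -83 to -74, counted from the RefSeq start at 77544148, but no peak in the list lay over it. With that start the position was close to that of the first Srf box. These matches are letters in the reference and no binding of SRF or MEF2 was measured.

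Each of the 9 genes had a peak whose midpoint lay within 1 kb of the start site it was assigned to, against 50.1% of protein coding RefSeq genes, or 74.6% of genes with a peak. Of the 22 family peaks, 10 (45.5%, 95% Wilson interval 26.9 to 65.3%, which covers counting over peaks only) were such start-site peaks, against 44.9% of all peaks. The other 12 lay farther away, 6 upstream and 6 downstream of the assigned start, and belonged to 6 genes. The Mef2c peak at -5298 bp and the Mkl2 peaks at -45821 and -21430 bp counted as upstream but lay in introns of these genes. At least 1 peak beyond 1 kb was seen for 54.4% of genes with a peak. By count, each gene had a peak near an assigned start, while the split between near and far peaks was close to that of all peaks. A peak present in all cells and one present in a part of them cannot be told apart in these bulk samples.

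**Figure D1:**
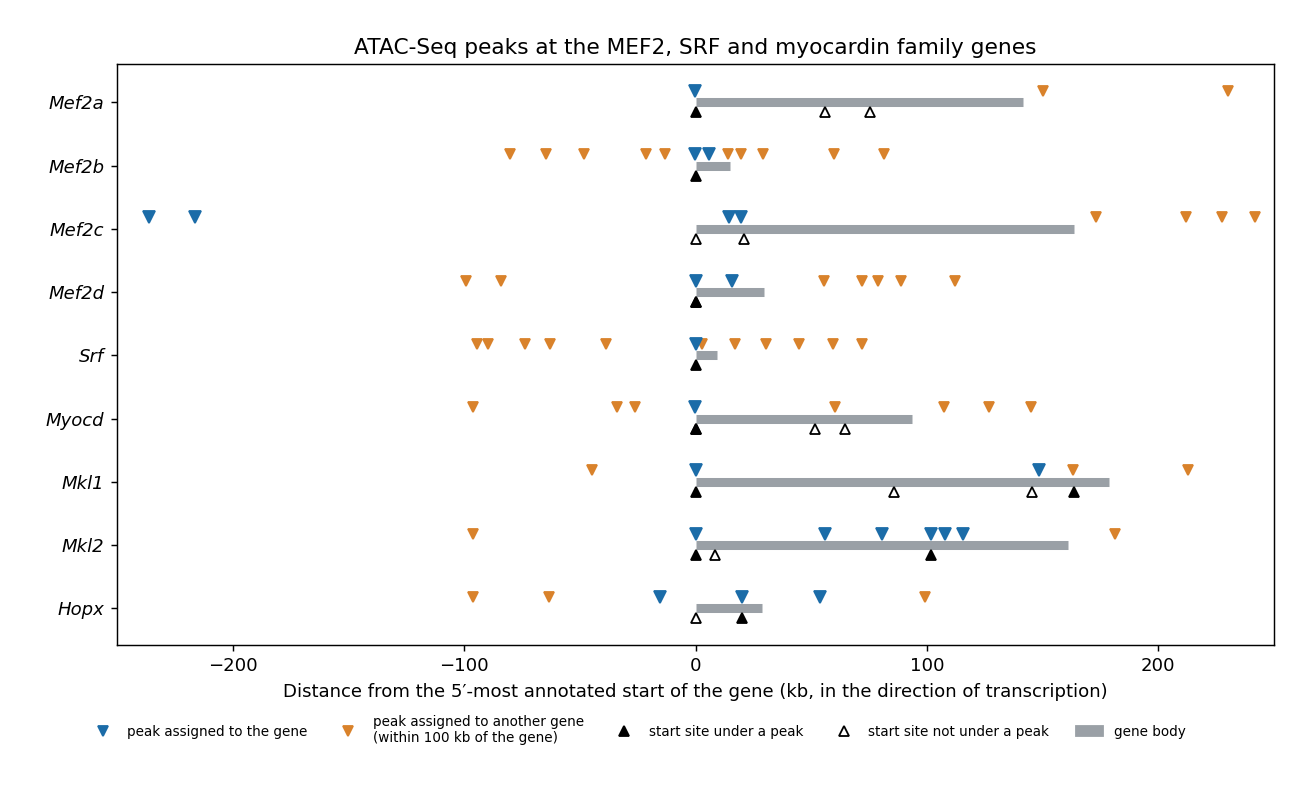
Peaks at the 9 genes, one gene per line, against distance in kb from the gene's most upstream annotated start in the direction of transcription. Blue triangles are peaks assigned to the gene, orange triangles are peaks assigned to other genes within 100 kb of it, grey bars are gene bodies, and black or open triangles under the bars are protein coding start sites under a peak (12 of 22) or not, so that the 6 peaks inside Mkl2, the 2 far upstream of Mef2c and the single peaks of Mef2a, Srf and Myocd can be seen.

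The genes differed in number of peaks. Mkl2 had 6 (1.95% of genes with a peak had 6 or more), Mef2c had 4 (7.62% had 4 or more) and Hopx had 3 (16.5% had 3 or more). Mef2b, Mef2d and Mkl1 had 2 each, so that 6 of the 9 genes had 2 or more, against 39.2% of genes with a peak. Mef2a, Srf and Myocd had a single peak each. This order followed the deposited assignment, since by nearest annotated coding start Mef2c had 8 peaks, Myocd 5, Srf 2, and Hopx and Mef2b 1 each. The mean was 2.444 peaks per gene over the family and 1.709 over all genes with a peak. Within the family the number ran from 1 to 6, so the mean described few of its members.

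**Figure D2:**
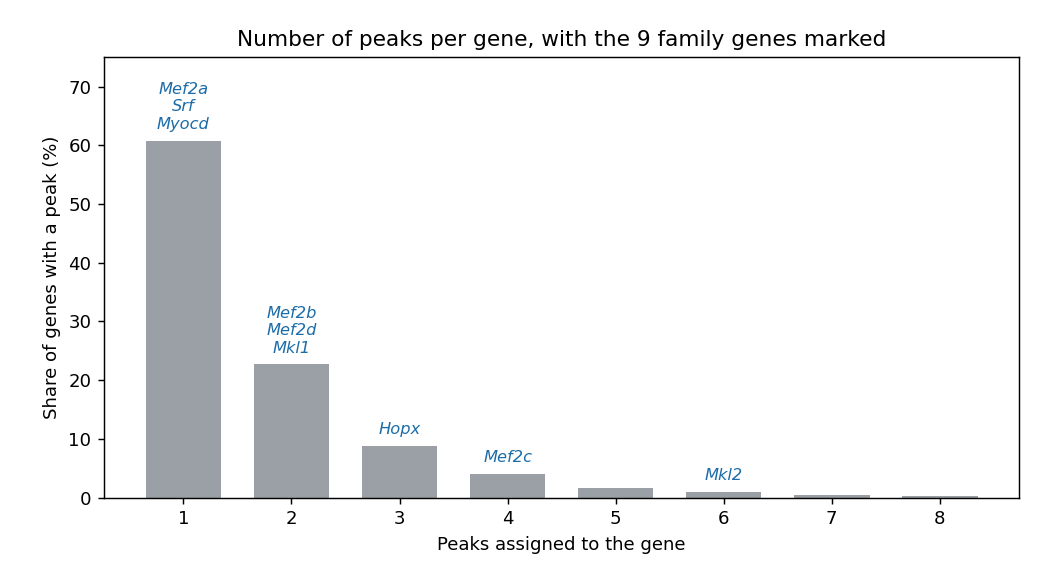
Share of the 15351 genes with a peak (vertical axis, %) by the number of peaks assigned to them (horizontal axis, up to 8), with the 9 family genes written above the bar of their own number. Most genes carry 1 peak, as Mef2a, Srf and Myocd do, while Mef2c (4) and Mkl2 (6) lie in the sparse right part.

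Other regulator families that include heart factors were set beside it as whole families. Of protein coding RefSeq genes, 50.1% had a peak within 1 kb. The 8 GATA and Friend of GATA genes held 22 peaks (2.75 per gene) and 5 of them had one within 1 kb. The 16 T-box genes held 39 peaks (2.438 per gene) and 9 had one within 1 kb. The 11 Hand, Hey and Hes genes held 22 peaks (2 per gene) and 4 had one within 1 kb. In the MEF2, SRF and myocardin family it was 9 of 9. Mef2c counted here through a RefSeq start, since its peak midpoint lay at -1304 bp from the nearest coding start in the GENCODE annotation. Some of the other genes missed the 1 kb limit narrowly, with the nearest peak of Gata3 at 1022 bp, of Gata4 at 1036 bp and of Hes1 at 1004 bp. The families were chosen by name and the list has no replicate values, so these counts stand as a description without a test.

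Among the MEF2 factors, Mef2a, a broadly expressed member, had the plainest locus. Its gene spans 141.7 kb, and the only peak in it was the start-site peak at chr7:74516986-74518894 (1909 bp wide, midpoint at a deposited distance of -195 bp). This peak was wider than 83.9% of all start-site peaks and reached 1150 bp upstream and 758 bp downstream of the start. The nearest peaks on either side were 148853 and 255445 bp away. Genes of like length (0.5 to 2 times that of Mef2a, 2874 genes) had a median of 1 peak in the body, and 87.6% had at least 1.

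Mef2d, which is also expressed in many tissues, had one of the family's broadest peaks. It lay at chr3:87945363-87947821, was 2459 bp wide and thus wider than 95.2% of start-site peaks, and reached 931 bp upstream and 1527 bp downstream of the first annotated start. A second annotated start, at 87946494, was under the same peak. The other Mef2d peak, at chr3:87961552-87962676 (1125 bp), was in an intron, 15819 bp downstream of the start.

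Mef2b, the most divergent MEF2 gene in sequence, is a compact gene of 14.71 kb that held 3 peaks in its body. Genes of like length (7513) had a median of 1, and 1.25% had 3 or more. The start-site peak at chr8:72676128-72677196 was 1069 bp wide, with its midpoint 1 bp from the assigned start. The second, at chr8:72681893-72683006 (1114 bp), lay 5789 bp downstream in an intron. The third, at chr8:72690355-72691343 (989 bp), also lay within the gene but carried the symbol of the neighbour Tmem161a. Peaks covered 17.8% of the Mef2b body, against a median of 3.69% in genes of like length. The annotated gene 2310045N01Rik runs across the same DNA, so the peaks cannot be given to Mef2b alone.

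Mef2c, the MEF2 gene first switched on in the heart fields and needed for looping of the heart tube, had a layout unlike that of Mef2d, with a narrow start-site peak and 3 of its 4 peaks beyond 1 kb. Its start-site peak, chr13:83662376-83662968, was 593 bp wide, narrower than all but 0.705% of start-site peaks, and had its midpoint 16 bp from the assigned start. That start, at 83662655, comes from RefSeq. The 2 protein coding start sites that GENCODE gives for Mef2c were not under a peak, the one at 83643033 being 13684 bp from the nearest peak and the one at 83663976 being 1008 bp away. Another RefSeq start, at 83712765, was not covered either. Of the 9 genes, Mef2c was the one with no GENCODE coding start under a peak.

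The other 3 Mef2c peaks comprised an intronic peak and a distant pair. The intronic one, chr13:83656717-83657999 (1283 bp), lay at -5298 bp from the same RefSeq start and 4376 bp from the start-site peak. The distant ones were chr13:83406317-83407026 (710 bp) and chr13:83426635-83427151 (517 bp), at deposited distances of -236362 and -216141 bp, measured here from the more upstream start at 83643033. They were the only 2 family peaks beyond 100 kb. The pair sat in a gene-poor stretch: 19608 bp separated them, 229565 bp without a peak followed toward Mef2c, and 1200801 bp without a peak preceded them. The nearest protein coding genes beside Mef2c are Cetn3, 1720.7 kb away, and Tmem161b, 555.2 kb away. Past the other end of Mef2c, 3 peaks carried the symbol C130071C03Rik, a noncoding RNA gene, and 1 the symbol Mir9-2, at 172900 to 241715 bp from the upstream start. By nearest annotated coding start these 4 would also fall to Mef2c, giving it 8 peaks.

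The covered Mef2c promoter window and the centre of the more distant peak are shown because each carried several of the searched patterns. They were picked for these matches. Capitals mark GATAA (GATA factors), TNAAGTG (Nkx2-5), CTAATG and CTAATT (LIM homeodomain factors such as Isl1), GGAATG (TEAD factors) and GGGCGG (SP and KLF factors), on either strand, besides the CArG box and the MEF2 site. No matches overlap in either window.
Mef2c, covered start, chr13:83662405-83662704 (mm9, plus strand): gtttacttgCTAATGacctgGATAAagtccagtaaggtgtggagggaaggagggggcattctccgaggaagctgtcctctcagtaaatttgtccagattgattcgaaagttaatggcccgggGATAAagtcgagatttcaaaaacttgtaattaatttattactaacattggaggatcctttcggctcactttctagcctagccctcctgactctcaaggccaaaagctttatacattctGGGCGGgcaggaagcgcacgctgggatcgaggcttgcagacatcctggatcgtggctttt
Mef2c, centre of the peak at -236362 bp, chr13:83406522-83406821 (mm9, plus strand): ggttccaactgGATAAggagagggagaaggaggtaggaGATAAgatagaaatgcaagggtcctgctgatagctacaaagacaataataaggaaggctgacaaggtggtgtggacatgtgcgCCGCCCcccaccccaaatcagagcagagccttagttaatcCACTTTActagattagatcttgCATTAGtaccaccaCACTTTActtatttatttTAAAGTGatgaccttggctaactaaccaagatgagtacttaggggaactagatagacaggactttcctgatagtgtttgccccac

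The promoter window held 2 GATAA matches, at -230 and -128, a CTAATG match at -241 and a GGGCGG match at -10, and all 4 were under the peak. Among all promoter windows GATAA was found in 25.4%, CTAATG in 7.36% and GGGCGG in 35.7%. The distant window held 2 GATAA, 3 TNAAGTG, 1 CTAATG and 1 GGGCGG match. Among the centres of all peaks beyond 1 kb these letters were found in 28.9%, 12.7%, 9.67% and 21.7%. Both sets of shares count windows with at least 1 match, so repeated matches and combinations of patterns were not compared with other windows. The companion peak at -216141 bp held none of the 8 patterns in its central 300 bp, and its GC content of 38.9% was lower than in all but 0.737% of distal peaks.

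Srf had the widest peak of the family, chr17:46691535-46694005 (2471 bp, wider than 95.3% of start-site peaks). It reached 894 bp upstream of the start, over the CArG box pair shown above, and 1576 bp downstream. Its midpoint lay in a coding exon of Srf. A second peak followed after a gap of 449 bp, at chr17:46689391-46691085 (1695 bp). It lies in an intron of Srf but carried the symbol Mir6976, a microRNA gene. From the outer edge of one to that of the other, the 2 peaks spanned 4615 bp, including the gap and the 894 bp before the start. Peaks covered 3272 bp, or 35.1%, of the Srf body of 9.324 kb, against a median of 4.62% over 6694 genes of like length, and the Srf share was larger than in 98.95% of them. By symbol alone, Srf would appear as a gene with 1 peak. The midpoints of both peaks also lay in an intron of the annotated gene Gm16736, so the peaks cannot be given to Srf alone.

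**Figure D3:**
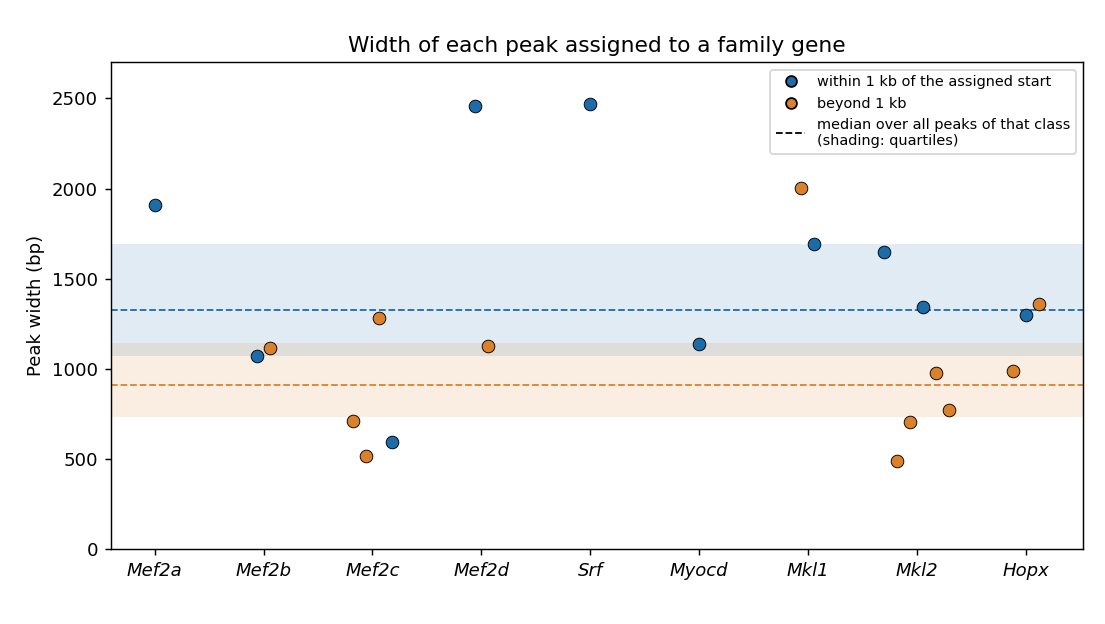
Width of each of the 22 family peaks (vertical axis, bp) by gene, in blue within 1 kb of the assigned start and in orange beyond it; dashed lines and shading give the median and quartiles over all 11772 start-site peaks (blue) and all 14460 peaks beyond 1 kb (orange). Srf (2471 bp), Mef2d (2459 bp) and Mef2a (1909 bp) lie above the blue quartiles, and the Mef2c start-site peak (593 bp) lies below both bands.

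Over the family, start-site peaks ranged from 593 to 2471 bp with a median of 1495 bp, against 1326 bp over all start-site peaks (quartiles 1072 and 1691.2 bp). The 12 peaks beyond 1 kb ranged from 489 to 2006 bp with a median of 980.5 bp, against 911 bp (quartiles 735 and 1146 bp). In both classes the family median lay within the quartiles of all peaks. The extremes were single genes: Srf, Mef2d and Mef2a at the broad end of start-site peaks, Mef2c at the narrow end, and an Mkl1 intron peak at the broad end of the distal class.

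Myocd, which encodes the heart and smooth muscle coactivator of SRF, was assigned 1 peak, chr11:65083003-65084140, 1138 bp wide and with its midpoint at -80 bp. It covered both upstream start sites of the gene and reached 649 bp upstream and 488 bp downstream of the one at 65083491. Start sites at 65032061 and 65018969, inside the gene, were 8300 and 3825 bp from the nearest peak. That nearest peak, chr11:65022794-65023761 (968 bp), lies in an intron of Myocd but carried the symbol Arhgap44, the next gene downstream.

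Upstream of Myocd, 3 further peaks carried the symbol Gm12295, at -26200, -33941 and -96131 bp from the Myocd start. The next protein coding gene on that side, Map2k4, is 518.3 kb away. By nearest annotated coding start Myocd would have 5 peaks, against 1 by the deposited symbol. The 4 added by that rule are the intronic peak and the 3 upstream peaks. The centre of the Myocd peak is shown with each CG in capitals, since its start lay at the border of the sequence classes described next.
Myocd, peak centre, chr11:65083422-65083721 (mm9, plus strand): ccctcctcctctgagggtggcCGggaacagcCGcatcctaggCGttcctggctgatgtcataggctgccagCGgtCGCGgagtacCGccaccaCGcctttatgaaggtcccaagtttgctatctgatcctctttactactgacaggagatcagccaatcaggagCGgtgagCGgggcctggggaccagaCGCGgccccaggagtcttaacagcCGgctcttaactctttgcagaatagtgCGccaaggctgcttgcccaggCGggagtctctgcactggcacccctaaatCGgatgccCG

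Mkl1, whose protein moves to the nucleus when actin polymerises, had a start-site peak and a broad peak deep in the gene. The start-site peak, chr15:81020273-81021963, was 1691 bp wide and extended 776 bp upstream and 914 bp downstream. The second peak, chr15:80871784-80873789, was 2006 bp wide and thus wider than 96.3% of distal peaks. Its deposited distance of 62691 bp was measured from a RefSeq start at 80935477 that no peak covered. The nearest annotated start of Mkl1 was 3190 bp from its midpoint. A further peak in the body, chr15:80857544-80858835 (1292 bp), reached 27 bp past the most downstream annotated Mkl1 start but carried the symbol Sgsm3. Between the first and second peaks lay 146483 bp of the gene without a peak.

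Mkl2, its paralogue, was assigned the most peaks, 6, all inside a gene of 161 kb, of which they covered 3.30%. Of 2568 genes of like length, 3.74% had 6 or more peaks in the body, and the median was 1. Of the 6 peaks, 2 were start-site peaks, and 1.92% of genes with a peak had 2 or more of these. The upstream one, chr16:13255957-13257605, was 1649 bp wide. The downstream one, chr16:13357792-13359132, was 1341 bp wide and had its midpoint 101888 bp from the upstream start. They differed in base composition, as the following pair of peak centres shows with each CG in capitals.
Mkl2, upstream start, peak centre, chr16:13256632-13256931 (mm9, plus strand): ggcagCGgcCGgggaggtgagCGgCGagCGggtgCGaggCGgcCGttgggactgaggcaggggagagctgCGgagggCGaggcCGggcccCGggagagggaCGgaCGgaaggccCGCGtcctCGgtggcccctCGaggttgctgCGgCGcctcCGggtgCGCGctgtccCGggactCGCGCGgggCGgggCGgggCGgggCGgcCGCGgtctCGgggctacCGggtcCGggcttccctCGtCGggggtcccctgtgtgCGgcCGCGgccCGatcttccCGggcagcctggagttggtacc
Mkl2, downstream start, peak centre, chr16:13358313-13358612 (mm9, plus strand): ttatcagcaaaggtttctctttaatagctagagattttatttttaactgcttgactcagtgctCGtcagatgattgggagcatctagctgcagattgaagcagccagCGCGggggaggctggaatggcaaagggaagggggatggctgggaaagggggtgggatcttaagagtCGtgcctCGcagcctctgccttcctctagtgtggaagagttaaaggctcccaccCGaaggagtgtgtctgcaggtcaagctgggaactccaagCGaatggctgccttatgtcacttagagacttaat

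The upstream centre held 43 CG pairs and the downstream centre 7. Over the whole peaks the GC content was 62.3% upstream and 48.6% downstream, the latter lower than in all but 1.94% of start-site peaks. The observed over expected CpG ratio was 0.795 upstream and 0.23 downstream. The downstream start was the one with the MEF2 site printed above, and it also held a GATAA match at -201 and a GGAATG match at -81. The upstream peak centre held 4 GGGCGG matches in a row, each sharing a base with the next.

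The 4 other Mkl2 peaks were intronic and, by the deposited distances, were measured from the downstream start. They fell on both sides of that start. Before it lay chr16:13312450-13312938 (489 bp, the narrowest family peak) at -45821 bp and chr16:13336734-13337436 (703 bp) at -21430 bp. After it came chr16:13364084-13365058 (975 bp) at 6056 bp and chr16:13371715-13372483 (769 bp) at 13584 bp. The downstream start-site peak and the peaks after it formed a run with gaps of 4951 and 6656 bp.

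Hopx, the SRF antagonist, had its start-site peak over the downstream of its 2 annotated starts. That peak, chr5:77523378-77524675, was 1298 bp wide and reached 375 bp upstream and 922 bp downstream. Its midpoint also lay in a noncoding exon part of the annotated gene Gm15830, so it cannot be given to Hopx alone. The upstream start, at 77544186, was 14796 bp from the nearest peak. The window with the CArG box printed above was taken from a RefSeq start close by, at 77544148, which was not under a peak either. The other Hopx peaks lay outside the gene, at chr5:77490038-77491023 (986 bp), 33762 bp downstream, and at chr5:77558982-77560340 (1359 bp), at -15512 bp. The upstream peak was measured from the uncovered RefSeq start. The midpoint of the downstream peak lay in a noncoding exon part of the gene 1700023E05Rik. Hopx was the member with all its peaks beyond 1 kb outside the gene body.

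GENCODE gives the 9 genes 22 protein coding start sites after merging those within 100 bp, and 12 of them (54.5%) were under a peak, against 45.9% of all 35601 such sites. A site was called CpG-rich when 500 bp on either side reached 50% GC and 0.6 for the ratio of observed to expected CpG. The 8 CpG-rich sites of the family were covered, as were 87.2% of all CpG-rich sites. With 250 bp on either side 9 sites were CpG-rich, and among them was the Mef2c start at 83663976, which was not covered. Of 14 CpG-poor sites, 4 (28.6%) were covered, against 19.5% of all. Those 4 belonged to Mef2b, Myocd, Mkl1 and Mkl2.

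**Figure D4:**
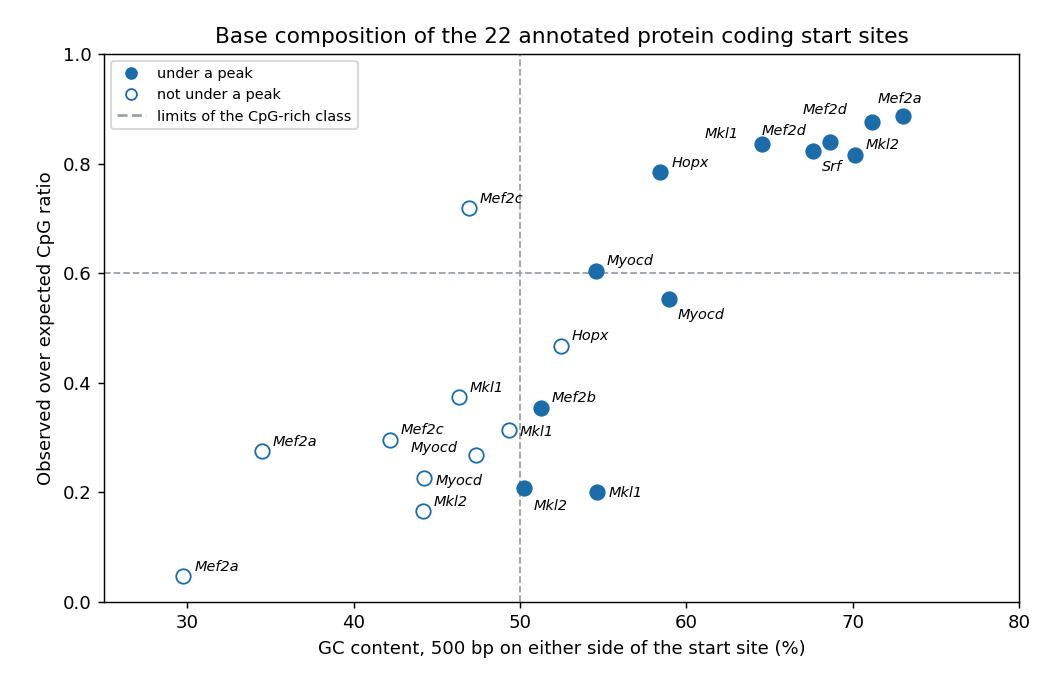
GC content (horizontal axis, %) against the observed over expected CpG ratio (vertical axis) in 500 bp on either side of each of the 22 annotated start sites, filled when under a peak and open when not. All 8 sites in the upper right field (at least 50% GC and a ratio of at least 0.6) are filled, while 4 of the 14 sites outside it are.

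Most family genes with several annotated starts had a peak over some of them and not over others. Of the 6 genes with 2 or more start sites and at least 1 of them covered, 5 (83.3%) had another that was not covered, against 67.4% of 5517 such genes. The 5 were Mef2a, Myocd, Mkl1, Mkl2 and Hopx. In Mef2a the uncovered internal starts had GC contents of 29.8 and 34.5%, against 73.0% at the covered one. In Hopx the values were 52.5% at the uncovered start and 58.4% at the covered one, with CpG ratios of 0.467 and 0.784. Myocd lay on the border between the classes, with ratios of 0.605 and 0.552 at its 2 covered starts. With 500 bp on either side 1 was called CpG-rich and the other CpG-poor. With 250 bp the 2 calls were the other way round.

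The central 300 bp of the 22 family peaks were searched for the 8 patterns. The CArG box was absent from all 22 centres, against 0.671% of start-site and 1.75% of distal centres over all peaks. The MEF2 site was in 1 centre, that of the Mkl2 downstream start, against 0.467% and 1.29%. GATAA was in 2 of 10 start-site centres (9.71% of all) and 5 of 12 distal centres (28.9% of all), in Mef2c, Mef2d, Mkl2 and Hopx. TNAAGTG was in 1 of 10 (6.03%) and 2 of 12 (12.7%), in Mef2c and Mkl1. GGGCGG was in 6 of 10 (66.5%) and 4 of 12 (21.7%), and Mef2b had 3 matches at its start and 4 in its intron peak. CTAATG was in 1 distal centre, of Mef2c (2.72% of all start-site and 9.67% of all distal centres), and GGAATG in 1 start-site centre, of Mkl2 (9.32% and 22.4%). CTAATT was in none (2.45% and 8.17%). The search window mattered for Srf, whose CArG boxes lay in the peak but outside its central 300 bp.

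Of the 22 family peaks, 8 (36.4%) had another peak within 10 kb, against 31.5% of all peaks. These were the 2 peaks of Mef2b, the 2 near peaks of Mef2c, the Srf peak and the 3 peaks around the downstream start of Mkl2. Mef2a, Mef2d, Myocd, Mkl1 and Hopx had none.

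The partners and targets of these factors were described with 7 lists of 42 genes in all. A peak was assigned to 39 of them (92.9%) and a peak within 1 kb to 32 (76.2%), against 62.5% and 50.1% of protein coding RefSeq genes. On the MEF2 side, the class IIa histone deacetylases, which bind and repress MEF2, had peaks at 3 of 4 genes and within 1 kb at 2, with 3 at Hdac7 and none at Hdac5. The kinases and the phosphatase that act on MEF2 had peaks within 1 kb at 5 of 5, the most being 2 at Ppp3ca, the catalytic subunit gene of calcineurin.

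On the SRF side, the ternary complex factors, which compete with myocardin for SRF, had a peak within 1 kb at 3 of 3 genes, and Elk3 had 3 peaks. The cofactors, a list not split between the SRF and MEF2 sides, had peaks at 6 of 6 genes and within 1 kb at 5. Among them Csrp1, a LIM protein gene of smooth muscle, had 6. Over protein coding RefSeq genes the shares were 62.5% with a peak and 50.1% within 1 kb. Of genes with a peak, 16.5% had 3 or more and 1.95% had 6 or more.

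The lists of target genes were read against the same 62.5% and 50.1%, and the heart muscle list was not split between the SRF and MEF2 sides. Of 7 smooth muscle genes, 7 had a peak within 1 kb, and Cald1, which encodes caldesmon, had 4 peaks in all. Of 8 early response genes, 8 had a peak and 5 had one within 1 kb, while Junb had its nearest at 1571 bp. Fos and Cyr61 had 4 peaks each. Of 9 heart muscle genes, 7 had a peak and 5 had one within 1 kb. Myl2, Tnnt2 and Ankrd1 had 3 each, while Nppa, the gene of atrial natriuretic peptide, and Smyd1, a heart and skeletal muscle methyltransferase gene, had none. An interval missing from this list says that no peak was listed in both replicates, and not that the DNA was closed.

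The labelled cell type was set against marker genes. A peak was assigned to 6 of 7 cardiac progenitor markers and a peak within 1 kb to 5, with 8 peaks at Isl1 and none at Hand2, against 62.5% and 50.1% of protein coding RefSeq genes. Pluripotency markers had a peak at 2 of 3 and within 1 kb at 1, with none at Pou5f1. All 3 neural markers had a peak within 1 kb. Liver markers had a peak at 2 of 3 and blood and endothelial markers at 2 of 4, and 0 of them had one within 1 kb. The part that other cell types had in the family's peaks was not tested.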

How the data were processed

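ATAC-Seq was performed by the authors on 2 day 5 CPC samples. The methods state that bowtie2 was used for alignment to mm9, duplicates were removed with Picard 1.136, peaks were called per replicate with MACS14 with a fixed shift, ENCODE blacklist regions were removed and peaks overlapping by at least 1 bp between replicates were kept with bedtools 2.15. No other correction for the Tn5 cut position is described, and assignment to genes with HOMER is described for ChIP-Seq peaks. The deposited list gives positions, a signed distance in bp, a RefSeq accession and a symbol, with no score or value per replicate, and may lack some original lines. Width depends on the depth of the sample whose coordinates were kept.

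Intervals were counted once per position (26429 lines, 26232 intervals) and read in Python 3.11.15 with pandas 2.3.3, numpy 2.4.6 and pysam 0.24.0. Sequence was read from NCBIM37 (mm9), gene models from GENCODE vM1, and names from a RefSeq table (14848 genes with a peak matched by accession, 473 by symbol, 19 by older symbol, 11 not matched). Motif search and the nearest start site rule were checked on simulated sequences and positions. Base composition was checked on a CG repeat and the percentile on a number series. Start-site means within 1 kb of the deposited start. Widths and motifs were compared with all peaks of the same distance class, and no test was run.

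The members, lists and named genes (all members, the list genes with most peaks or none, and the genes given peaks in or beside a member) were chosen with earlier results of these data known. The promoter windows, alternative starts and gene body shares were added after the peaks were seen. Alternatives covered repeat lines, width, distance limit, motif window, start site flank, neighbour gap and assignment rule. A further gene list is not reported here.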

Additional observations from a re-analysis of the deposited data

How the results depend on the processing

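For the family as a whole, 33 alternative values lay within 1.5 times the reported ones and 11 did not. Among the 33, assignment to the nearest annotated protein coding start gave 31 peaks (3.444 per gene) and gene bodies widened by 10 kb gave 26. With peaks wider than the median of all peaks, the family held 13 peaks in place of 22 and 1.444 peaks per gene in place of 2.444. Searching whole peaks in place of the central 300 bp raised the number of peaks with a match from 0 to 1 for the CArG box, from 1 to 3 for the MEF2 site, from 7 to 16 for GATAA, from 3 to 8 for TNAAGTG, from 1 to 3 for CTAATG, from 0 to 3 for CTAATT and from 1 to 7 for GGAATG, since more sequence was searched. With the central 200 bp the MEF2 site had 0 matches and GATAA 2. For single genes, 32 values lay within 1.5 times and 13 did not. Assignment to the nearest annotated protein coding start gave 8 peaks at Mef2c, 5 at Myocd, 2 at Srf, 1 at Mef2b and 1 at Hopx. Gene bodies widened by 10 kb gave 4 at Mef2b, 3 at Srf, 2 at Myocd, 2 at Mef2a and 1 at Hopx. With wider peaks, Mkl2 had 2, and Mef2b and Mef2c had 1 each. No paired analysis was possible because the series has 1 group, and neither replicate could be left out because there is no value for either sample. Depth is unknown, so peaks missing from the list may lie under the limit of detection.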
